A study of Mus musculus with 17 samples.

Results

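Keratins of simple epithelia and mesothelial markers were followed gene by gene through mouse ovary arrays of 4 genotypes. The 10 genes were chosen by name as markers of the ovarian surface: Krt7, Krt8, Krt18, Krt19, Upk1b, Upk3b, Msln, Cdh1, Muc16 and Lgals7. In the probe annotation used here 9 of the 10 had a probe, out of 19057 genes with probes of a single symbol. Muc16 had 0 probes and was not analysed here. The 9 genes had 16 probes, of which 13 passed a filter on detection, and 3 (the second probes of Krt8, Upk1b and Cdh1) were detected on 0 arrays and were left out.

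The mouse ovary is covered by a thin epithelium that is a modified mesothelium, continuous with the lining of the peritoneum and, near the hilum, close to the epithelium of the oviduct. Its cells hold keratins of simple epithelia, which form filaments only as pairs of a type II chain (Krt7 or Krt8) with a type I chain (Krt18 or Krt19). Mesothelia also make mesothelin (Msln) and the uroplakin Upk3b, while the oviduct epithelium makes the same simple keratins together with E-cadherin (Cdh1) and, in its secretory cells, oviduct-specific glycoprotein (Ovgp1). Ovgp1 was therefore read on every array as a sign of oviduct tissue.

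The samples were total RNA from ovaries of female mice of an FVB/N x C57/BL6 cross, 12 weeks old, hybridised to Illumina bead arrays. The genotypes were wild type (4 arrays), Fshr-CAM (4 arrays), Lhr-null (4 arrays) and Fshr-CAM/Lhr-null, which carries both alterations (5 arrays). Fshr is the receptor for follicle stimulating hormone and Lhr that for luteinising hormone. The labels do not spell out CAM or give the promoter that drives it, and they do not say whether the replicates were separate animals, so the p-values cover the spread among the deposited samples and that spread may be technical. Fshr was read by 3 kept probes, and the brightest in Fshr-CAM lay between 11.12 and 11.88 log2 units on the Fshr-CAM arrays and between 9.73 and 11.72 on the Fshr-CAM/Lhr-null arrays, against 8.35 to 9.16 in wild type and 9.14 to 9.92 in Lhr-null. Another probe had the same order of means, while the third did not separate Fshr-CAM (8.88 to 9.65) from wild type (8.48 to 9.37) and was highest in Lhr-null (9.65 to 10.23). The receptor gene Lhcgr had 0 probes with its symbol, so the Lhr genotype had no check of its own.

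Of 45281 probes, 19366 to 22006 were detected on an array; the median probe was read by 41 to 43 beads. The bead-to-bead standard error of the member probes that were kept was 3.20% to 9.50% of the signal. Values below are log2 signals after background correction and quantile normalisation of 16 arrays, except that values of Lhr-null replicate 1, of the spermatid genes and of marker lists come from all 17 arrays normalised together. Lhr-null replicate 1 stood apart and was left out of the main fit: its growth hormone gene Gh read 14.90 and prolactin gene Prl 14.71, and its granulosa cell markers averaged 5.66 against 8.78 to 10.09 on the other 16 arrays. On that array Upk1b read 4.43, Msln 4.56, Krt19 4.52 and the brightest Upk3b probe 5.90, while Krt8 read 9.70, Krt18 8.26 and Cdh1 7.40. The 3 remaining Lhr-null arrays also differed among themselves. Ovgp1 reached 11.31 on Lhr-null replicate 3, 13.36 on replicate 4 and 10.48 on Fshr-CAM/Lhr-null replicate 3, and lay between 6.24 and 7.43 on the other 13 arrays. Lhr-null replicate 2 carried the spermatid genes Ldhc at 13.30 and Prm1 at 12.15.

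**Figure D1:**
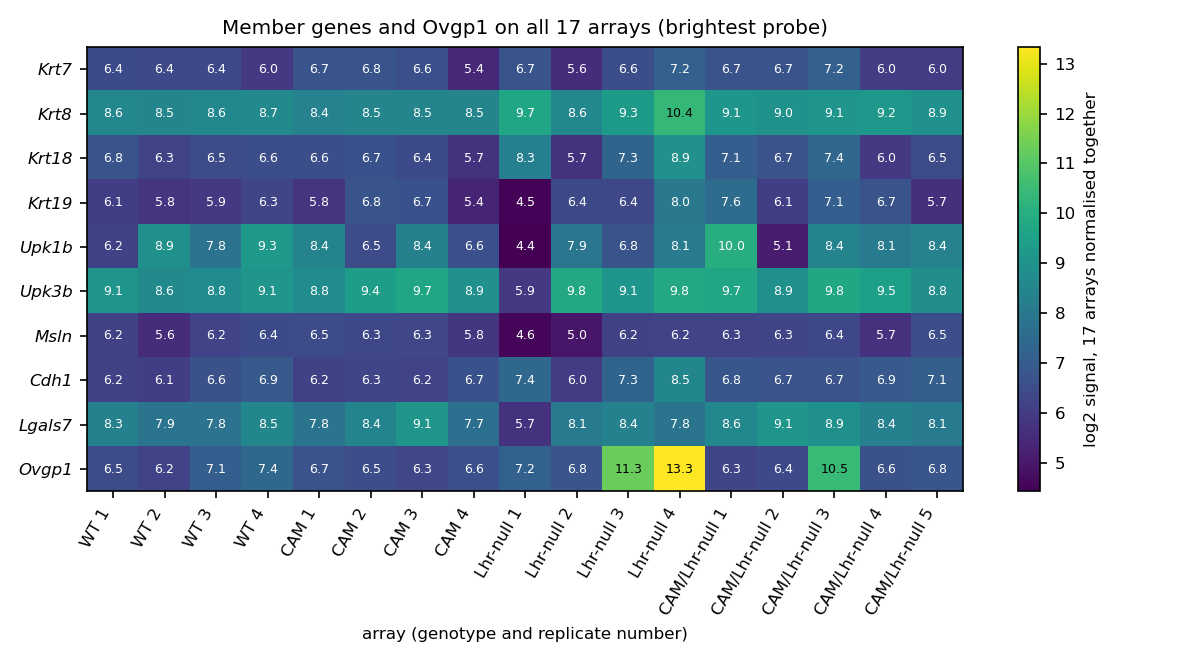
Log2 signal of the brightest probe of each of the 9 member genes and of Ovgp1 (rows) on all 17 arrays (columns; WT, wild type; CAM, Fshr-CAM), normalised together. Lhr-null replicate 1 is low for Krt19, Upk1b, Upk3b and Msln, and Ovgp1 is bright on 3 arrays only.

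The sequences upstream of 4 members are shown because Krt8 and Krt18, partners in 1 filament, lie close together on chromosome 15 with Krt7, while Upk3b lies apart from them on chromosome 5. Each run is the 250 bases before the gene's start in RefSeq, build GRCm38.p6, read 5′ to 3′ on the gene's own strand, and capitals mark the E-box CAGGTG or its reverse complement CACCTG. The windows are chr15:102004343-102004592 on the minus strand for Krt8, chr15:102027966-102028215 on the plus strand for Krt18, chr15:101412153-101412402 on the plus strand for Krt7 and chr5:136038246-136038495 on the plus strand for Upk3b.
Krt8: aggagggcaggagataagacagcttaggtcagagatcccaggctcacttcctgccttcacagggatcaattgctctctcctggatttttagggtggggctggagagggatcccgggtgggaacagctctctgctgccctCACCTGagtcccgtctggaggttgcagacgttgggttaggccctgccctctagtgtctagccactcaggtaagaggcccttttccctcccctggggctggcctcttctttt
Krt18: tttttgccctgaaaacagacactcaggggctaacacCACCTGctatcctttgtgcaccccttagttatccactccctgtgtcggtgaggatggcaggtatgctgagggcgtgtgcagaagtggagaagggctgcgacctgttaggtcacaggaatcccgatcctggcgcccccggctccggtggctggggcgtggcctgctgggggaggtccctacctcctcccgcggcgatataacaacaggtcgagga
Krt7: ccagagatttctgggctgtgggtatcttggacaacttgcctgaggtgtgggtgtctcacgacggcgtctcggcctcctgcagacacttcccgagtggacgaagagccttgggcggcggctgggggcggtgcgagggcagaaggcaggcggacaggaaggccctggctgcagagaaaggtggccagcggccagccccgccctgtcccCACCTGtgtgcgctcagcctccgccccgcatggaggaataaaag
Upk3b: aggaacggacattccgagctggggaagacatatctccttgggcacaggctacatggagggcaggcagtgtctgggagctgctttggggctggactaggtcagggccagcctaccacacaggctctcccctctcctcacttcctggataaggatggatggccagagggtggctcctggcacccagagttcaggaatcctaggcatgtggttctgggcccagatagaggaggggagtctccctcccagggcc

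CAGGTG is known as the letters through which the repressors Snai1 and Zeb1 bind the Cdh1 promoter. It was found on either strand in 1 place each in the Krt8 window (position -111 from the start), the Krt18 window (-214) and the Krt7 window (-44), and in 0 places in that of Upk3b. Counting the windows of Muc16 and Lgals7, which are not shown, 3 of the 6 members in the promoter table held it. Of 32851 promoter windows of the same length, 17.2% held it. Krt7 also held GGGCGG, the letters of a GC box, in 4 places (either strand), a motif found in 32.7% of windows, and Krt18 held TATAA in 1 place at -19 (22.8% of windows, either strand). TGANTCA, the letters of an AP-1 site, was in 0 of the 4 windows against 6.75% of all. These matches describe letters only.

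Krt8, the type II chain of simple epithelia, was higher on every ovary array that carried both alterations than on any wild type or Fshr-CAM array. In wild type it read 8.57, 8.51, 8.61 and 8.67, and in Fshr-CAM 8.40, 8.51, 8.49 and 8.49. In the 5 Fshr-CAM/Lhr-null ovaries it read 9.14, 8.97, 9.08, 9.21 and 8.95. These 5 arrays did not overlap either of the other groups, and replicate 3, the array with Ovgp1 at 10.48, was in the middle of the 5. Of all probes, 6.45% were likewise higher without overlap against wild type and 2.86% against Fshr-CAM. Of the 13 member probes, 1 was so against wild type and 2 against Fshr-CAM. The 3 Lhr-null arrays read 8.61, 9.29 and 10.37, in the order of their Ovgp1 (6.78, 11.31 and 13.36), and overlapped wild type.

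The means for Krt8 were 8.47 ± 0.05 (SD, n = 4) in Fshr-CAM, 8.59 ± 0.07 (n = 4) in wild type, 9.07 ± 0.11 (n = 5) in Fshr-CAM/Lhr-null and 9.42 ± 0.89 (n = 3) in Lhr-null. In the limma fit over 23098 probes Krt8 was lower in Fshr-CAM than in Lhr-null, by 1.93-fold (log2 difference -0.95, SE 0.26, adjusted p = 0.0407), and all Fshr-CAM arrays lay below all Lhr-null arrays. It was the only member of the 13 probes past the threshold of 0.05 in that comparison, in which 6.42% of all probes passed. Without Lhr-null replicate 4 the difference was -0.47 (adjusted p = 0.109), and the call was also lost, at an adjusted p of 0.0503 to 0.0886, on leaving out Lhr-null replicate 3, any of Fshr-CAM/Lhr-null replicates 1, 2, 3 and 5, any of Fshr-CAM replicates 1, 2 and 3, or either of wild type replicates 1 and 3. Without the 3 arrays of high Ovgp1, which leaves Lhr-null replicate 2 alone, the difference was -0.13 (adjusted p = 0.661). Over the alternatives other than leaving out 1 array the adjusted p ran from 0.0111 to 0.661, and over those that leave out 1 array from 0.00177 to 0.109. In bulk tissue, more surface or oviduct cells and more Krt8 RNA per cell cannot be told apart.

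Against Fshr-CAM, Krt8 in Fshr-CAM/Lhr-null was 1.51-fold higher (log2 0.60, 95% interval 0.12 to 1.08, adjusted p = 0.211 in limma). Against wild type it was 1.39-fold higher (log2 0.48, interval -0.01 to 0.96, adjusted p = 0.225). Neither passed in the fit of 16 arrays, whose common estimate of the spread includes the Lhr-null arrays. With only the arrays of the groups compared in the fit, both passed, with a difference of 0.60 (adjusted p = 0.0122) against Fshr-CAM and 0.48 (adjusted p = 0.0121) against wild type. Without the 3 arrays of high Ovgp1 the differences were 0.59 (adjusted p = 0.0122) and 0.47 (adjusted p = 0.0127). Over the alternatives other than leaving out 1 array the adjusted p ran from 0.0122 to 0.476 and from 0.0121 to 0.604, respectively.

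**Figure D2:**
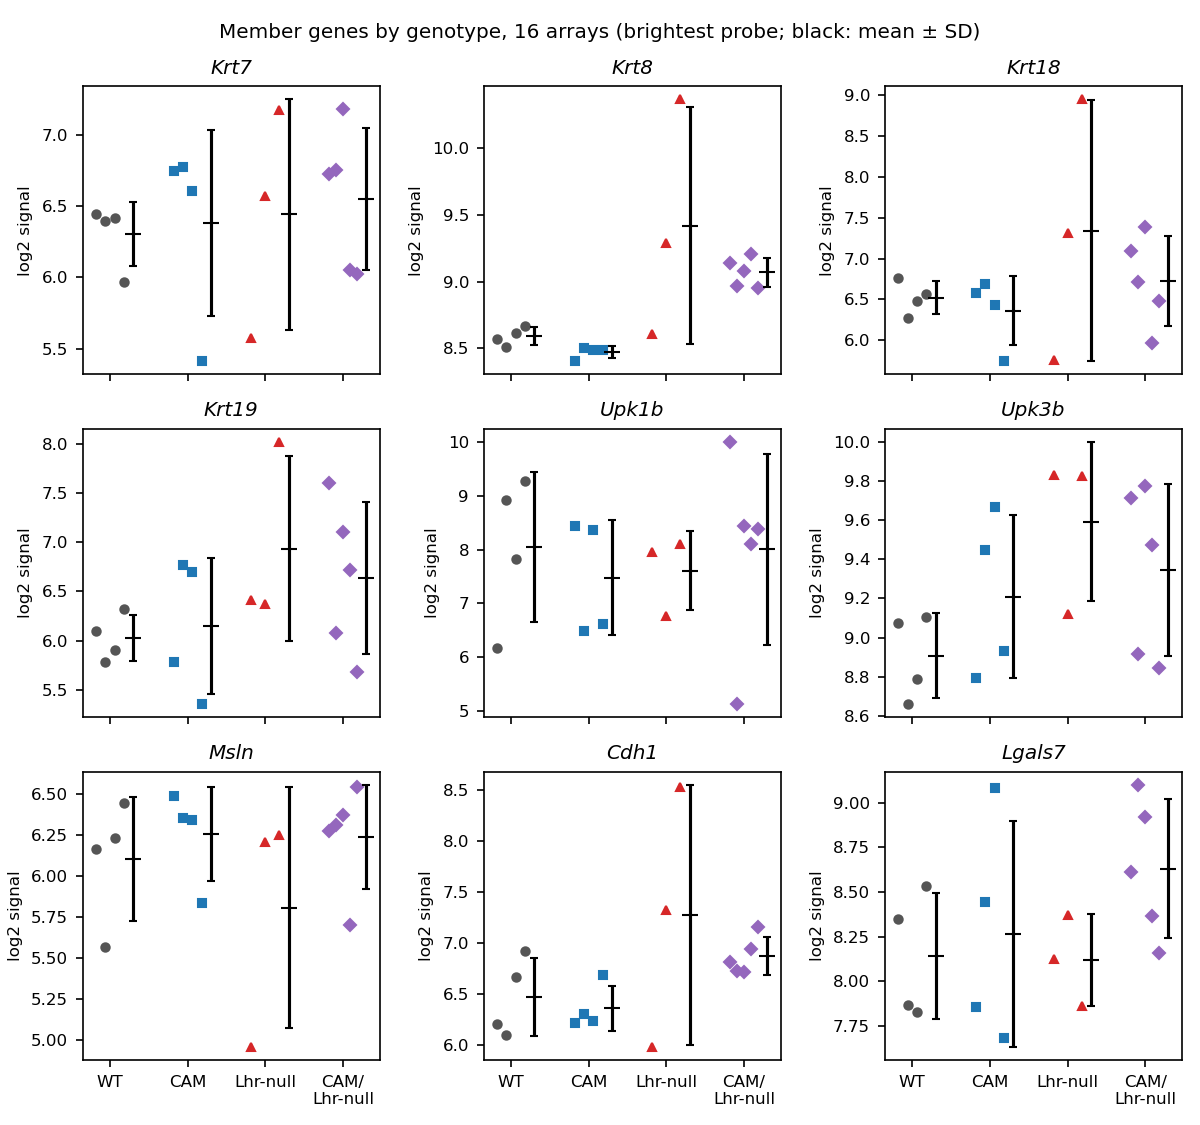
Log2 signal of the brightest probe of each member (vertical axes, 1 panel per gene) in the 4 genotypes; each symbol is 1 of 16 arrays and the black bars are mean ± SD. Krt8 lies between 8.95 and 9.21 on all 5 Fshr-CAM/Lhr-null arrays, above the wild type and Fshr-CAM arrays, and Upk1b spreads from 5.12 to 10.004 with every genotype broad.

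Krt18, the type I partner of Krt8, did not show the same separation. It read 6.77, 6.27, 6.48 and 6.57 in wild type, 6.58, 6.68, 6.44 and 5.75 in Fshr-CAM, and 7.09, 6.71, 7.39, 5.97 and 6.48 in Fshr-CAM/Lhr-null, so these 3 genotypes overlapped. In Lhr-null it read 5.76, 7.32 and 8.95. The lowest of these was replicate 2, the array with spermatid genes, and the highest was replicate 4, the array with the brightest Ovgp1. The difference between Lhr-null and wild type was 0.82 (SE 0.52, adjusted p = 0.355), 1.62 without replicate 2 (adjusted p = 0.0337) and 0.01 without replicate 4 (adjusted p = 0.991). Without the 3 arrays of high Ovgp1 it was -0.77 (adjusted p = 0.319).

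Krt19, the other type I chain, and Krt7, the other type II chain, varied among arrays of a genotype more than between genotypes. Krt19 read 6.10, 5.78, 5.91 and 6.32 in wild type and 6.41, 6.37 and 8.02 in Lhr-null, with no overlap, while Fshr-CAM spanned 5.36 to 6.77 and Fshr-CAM/Lhr-null 5.68 to 7.60. Its difference between Lhr-null and wild type was 0.91 (SE 0.48, adjusted p = 0.249), 0.30 (adjusted p = 0.833) with replicate 1 included and 0.37 (adjusted p = 0.722) without replicate 4. Krt7 means lay close together, from 6.30 ± 0.22 in wild type to 6.55 ± 0.50 in Fshr-CAM/Lhr-null, and the array ranges of all genotypes overlapped.

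Cdh1, the adherens junction cadherin of epithelia, had its genotype means in the same order as Krt8. It read 6.21, 6.10, 6.66 and 6.92 in wild type, 6.21, 6.30, 6.23 and 6.68 in Fshr-CAM, 6.81, 6.72, 6.72, 6.94 and 7.16 in Fshr-CAM/Lhr-null and 5.98, 7.32 and 8.53 in Lhr-null. The Fshr-CAM/Lhr-null arrays lay above all Fshr-CAM arrays and overlapped wild type. With Krt8 it made 2 of 13 member probes whose Fshr-CAM/Lhr-null arrays were all higher than the Fshr-CAM arrays, where 2.86% of all probes were. The difference of 0.51 (SE 0.35) had an adjusted p of 0.519. In Lhr-null against wild type Cdh1 differed by 0.81 (SE 0.40, adjusted p = 0.222), by 1.46 (adjusted p = 0.00995) without Lhr-null replicate 2 and by 0.18 (adjusted p = 0.810) without replicate 4. Without the 3 arrays of high Ovgp1 it was -0.50 (adjusted p = 0.420).

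Several members were high on the 3 Ovgp1-bright arrays. On Lhr-null replicate 4, Krt8, Krt18, Krt19 and Cdh1 each had their highest value of the 16 arrays (10.37, 8.95, 8.02 and 8.53), and on Lhr-null replicate 3 Krt8, Krt18 and Cdh1 had values of 9.29, 7.32 and 7.32. On Fshr-CAM/Lhr-null replicate 3, Krt7 (7.18, its highest of the 16 arrays), Krt18 (7.39) and Upk3b (9.77) were the highest of their genotype, while Krt8 (9.08), Krt19 (7.11) and Cdh1 (6.72) were not. Krt7 was next highest on Lhr-null replicate 4 (7.18). Markers of motile cilia, which line the oviduct, averaged 7.30 to 8.68 on the 4 Lhr-null arrays against 5.15 to 5.89 on the 13 others over 9 genes, with 6 to 8 of 9 detected against 4 to 7. They did not all rise. Foxj1 read 5.10, 4.78, 4.90 and 6.23 on Lhr-null replicates 1 to 4, against 5.13 to 5.50 in wild type. Spag6 read 4.64 to 4.89 in Lhr-null, against 4.57 to 5.02 in wild type. Oviduct secretory markers averaged 5.42 to 7.62 in Lhr-null, 5.23 to 6.47 in Fshr-CAM/Lhr-null, 5.15 to 5.44 in Fshr-CAM and 5.25 to 5.92 in wild type over 5 genes, with 2 or 3 detected in every group. Besides Ovgp1, Wfdc2 read 11.56, 6.74, 7.98 and 10.54 on Lhr-null replicates 1 to 4, against 6.16 to 7.69 in wild type. Pax8 read 4.74 to 5.27 in Lhr-null, against 4.68 to 4.98 in wild type. Pax2 (4.37 to 4.48) and Sprr2f (4.37 to 4.54) were not detected on any Lhr-null array. Spermatid markers averaged 6.15 to 10.2 in Lhr-null and 4.60 to 6.06 elsewhere, over 5 genes. Adipocyte markers, over 5 genes, averaged 6.48, 6.15 and 5.92 on Lhr-null replicates 2, 3 and 4, 4.58 on replicate 1 and at most 5.74 on the other 13 arrays. Of the 5 genes, 4, 3 and 3 were detected on those 3 Lhr-null arrays, 1 on replicate 1 and 2 to 4 on the others. The adipocyte hormone gene Adipoq read 8.92, 8.49 and 8.32 on the same 3 arrays and at most 7.77 on the other 13. Ovgp1 itself differed between Lhr-null and wild type by 3.67 (adjusted p = 0.0583). The part of these tissues in the Lhr-null values was not tested.

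**Figure D3:**
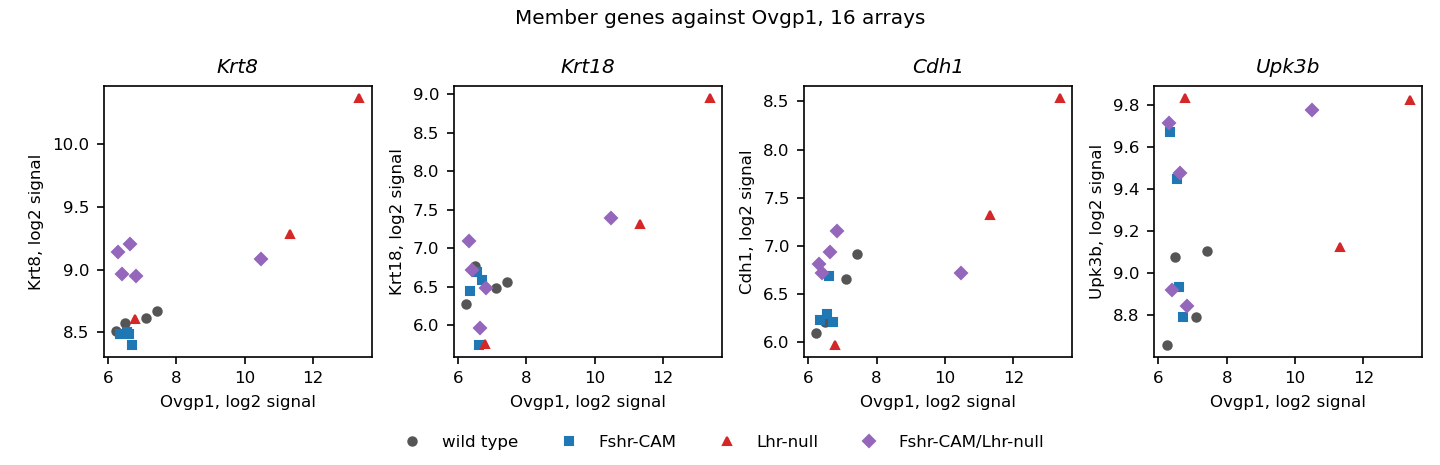
Log2 signal of Krt8, Krt18, Cdh1 and Upk3b (vertical axes) against that of Ovgp1 (horizontal axes) on 16 arrays, coloured by genotype. The array with Ovgp1 at 13.36 is the highest for Krt8, Krt18 and Cdh1, and every Fshr-CAM/Lhr-null array lies above the wild type arrays for Krt8. The part of oviduct tissue in these values was not tested.

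Upk3b, a uroplakin that marks mesothelium, was measured by 3 probes that gave the same order of genotype means. Its brightest probe read 9.07, 8.66, 8.79 and 9.11 in wild type, 8.79, 9.45, 9.67 and 8.93 in Fshr-CAM, 9.72, 8.92, 9.77, 9.48 and 8.84 in Fshr-CAM/Lhr-null and 9.83, 9.12 and 9.83 in Lhr-null. All Lhr-null arrays lay above all wild type arrays, but the margin was narrow on replicate 3. The same 3 Lhr-null arrays were the highest of all for the adipocyte markers, whose part in the Upk3b and Krt19 values was not tested. The 2 brighter Upk3b probes and Krt19 were the 3 of 13 member probes without overlap in that direction, against 9.6% of all probes. The differences from wild type were 0.69 (SE 0.27, adjusted p = 0.115), 0.67 (SE 0.25, adjusted p = 0.108) and 0.55 (SE 0.29, adjusted p = 0.253).

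Upk3b read 9.83 both on Lhr-null replicate 2, where Ovgp1 read 6.78, and on replicate 4, where Ovgp1 read 13.36. All 3 Ovgp1-bright arrays lay above every wild type array for the 2 brighter Upk3b probes, as did other arrays with low Ovgp1. On the dimmest probe Lhr-null replicate 3 read 7.05, within the wild type range of 6.83 to 7.30. With Lhr-null replicate 1 included, the differences of the 3 Upk3b probes turned to -0.23, -0.39 and -0.13, with adjusted p of 0.888, 0.820 and 0.924. Without the 3 arrays of high Ovgp1, which leaves replicate 2 as the only Lhr-null array, they were 0.93, 0.92 and 0.97 (adjusted p = 0.183, 0.165 and 0.173).

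Msln, the mesothelin of mesothelial surfaces, read 6.17, 5.57, 6.24 and 6.44 in wild type and 4.96, 6.21 and 6.25 in Lhr-null. The low Lhr-null array was again replicate 2, on which Upk3b was high. Fshr-CAM spanned 5.84 to 6.49 and Fshr-CAM/Lhr-null 5.70 to 6.54, and the means of 6.26 ± 0.29 and 6.24 ± 0.32 differed by less than the spread between arrays. The difference of Lhr-null from wild type was -0.30 (interval -0.94 to 0.35, adjusted p = 0.602). Lgals7, a galectin of stratified epithelia, read 7.83 to 8.53 in wild type, 7.68 to 9.08 in Fshr-CAM, 8.16 to 9.10 in Fshr-CAM/Lhr-null and 7.86 to 8.37 in Lhr-null on its brightest probe. Its second probe read between 6.48 and 7.94 and the third, between 4.83 and 5.66, was detected on 14 of 16 arrays.

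Across comparisons, few member probes passed. In Lhr-null against wild type 0 of 13 passed where 9.57% of all probes did, and in Fshr-CAM/Lhr-null against wild type 0 of 13 where 7.9% did. In Fshr-CAM/Lhr-null against Fshr-CAM (1.62% of all), Fshr-CAM/Lhr-null against Lhr-null (0.563%), Fshr-CAM against wild type (0.13%) and the interaction of the genotypes (0.156%) the count was also 0. At an unadjusted p under 0.05 the member counts were 3, 0, 1, 0, 0 and 0 of 13 in the same order, beside 25.5%, 22.8%, 15.99%, 12.6%, 5.39% and 6.88% of all probes, and 2 of 13 in Fshr-CAM against Lhr-null, beside 23.7%. The adjusted p of Krt8 in Lhr-null against wild type was 0.0548, with a difference of 0.83 (SE 0.26, interval 0.28 to 1.38), and 0.0391 with replicate 1 included (difference 0.90). The Krt8 difference was 1.24 without Lhr-null replicate 2 (adjusted p = 0.00238), 0.35 without replicate 4 (adjusted p = 0.197) and 0.01 without the 3 arrays of high Ovgp1 (adjusted p = 0.974). Over its alternatives other than leaving out 1 array the adjusted p ran from 0.00982 to 0.974. The comparisons share arrays and are not independent of each other.

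The median difference over the 13 member probes was 0.55 in Lhr-null against wild type and 0.33 in Fshr-CAM/Lhr-null against wild type, beside -0.03 and 0.03 for all probes. These 13 probes read only 9 genes, as Upk3b and Lgals7 have several probes each. The 0.55 is the value of the dimmest Upk3b probe, and the arrays of high Ovgp1 are included. It was 0.20 in Fshr-CAM/Lhr-null against Fshr-CAM, 0.12 in Fshr-CAM against wild type and -0.22 in Fshr-CAM/Lhr-null against Lhr-null, where all probes had medians of 0.02, -0.002 and 0.05. In Fshr-CAM against Lhr-null it was -0.37 and in the interaction -0.23, both beside 0.05. Krt8 was the 1 member probe whose Fshr-CAM/Lhr-null arrays all lay above wild type (6.45% of all probes), the 1 whose Fshr-CAM arrays all lay below wild type (1.31%) and the 1 whose Fshr-CAM arrays all lay below Lhr-null (7.58%). The second of these differences was only -0.12 (adjusted p = 1.00). Upk1b had the widest intervals, which at up to 3.94 log2 units in the 6 pairs and 5.25 in the interaction left large differences undetectable with these numbers of arrays.

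**Figure D4:**
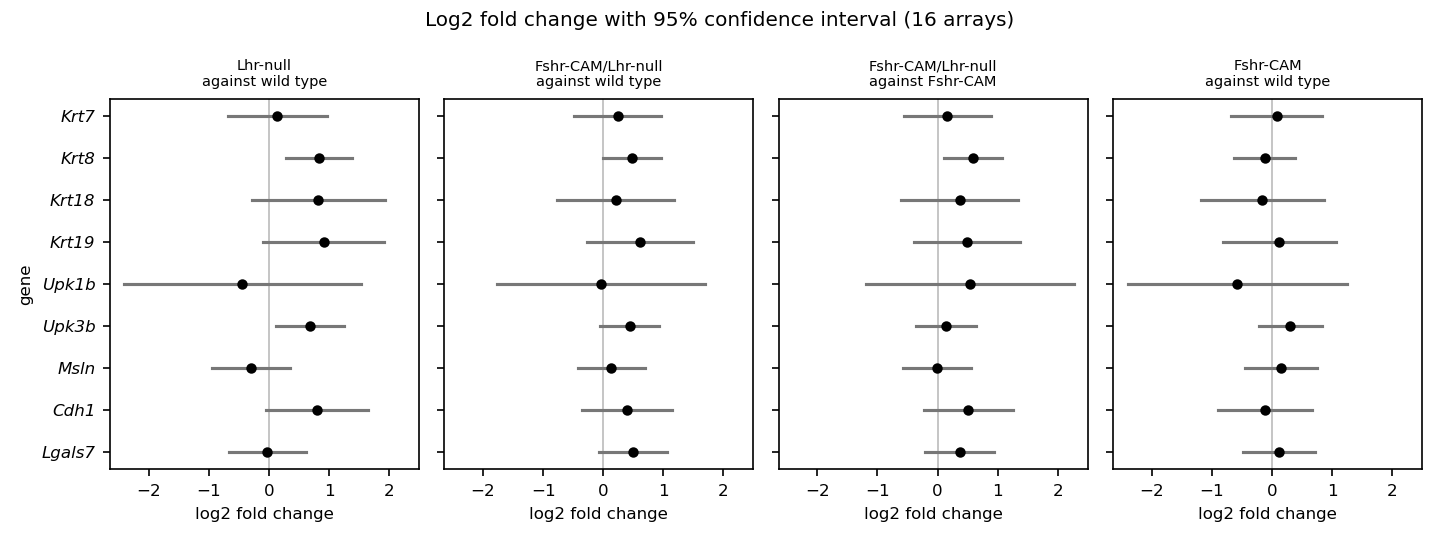
Log2 fold change of the brightest probe of each member (points) with 95% confidence interval (lines) in 4 genotype comparisons, from the fit of 16 arrays. The intervals of Krt8 and Upk3b lie above 0 in Lhr-null against wild type, and that of Krt8 also in Fshr-CAM/Lhr-null against Fshr-CAM. The Upk1b intervals are the widest.

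Upk1b, a tetraspanin uroplakin, varied in another way. It read 6.17, 8.92, 7.83 and 9.28 in wild type, 8.43, 6.49, 8.37 and 6.61 in Fshr-CAM, 10.004, 5.12, 8.43, 8.10 and 8.38 in Fshr-CAM/Lhr-null and 7.95, 6.76 and 8.11 in Lhr-null. From lowest to highest this is a 29.5-fold range. Low arrays occurred in every genotype, and no genotype separated from another. The pooled SD within genotypes was 1.38, which was the 99.7th percentile of all kept probes. The bead-to-bead standard error of this probe was at most 7.16% of the signal. Upk1b passed in 0 of the 7 comparisons, with adjusted p of 0.817 or more.

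Among all genes the likeness of Upk1b to others was examined because of this spread, after its values had been seen. Of the 10 genes whose signals were most like Upk1b over the 16 arrays, 5 lie on its own chromosome, 16, which holds 3.13% of the 12126 genes compared. They were Igsf11, an immunoglobulin-family adhesion protein (Pearson r = 0.92), Atg3, an enzyme of autophagosome formation (0.86), Crybg3 (0.76), the kinase gene Tnk2 (0.68) and Cd200 (0.63). Igsf11 is next to Upk1b in the RefSeq order of the chromosome 16 genes with a kept probe. The 5 arrays lowest for Upk1b were also the 5 lowest for Igsf11, which read at most 7.58 on them and at least 8.39 on the other 11. Atg3 shared 4 of the 5. Each of the other 8 members had 0 or 1 genes of its own chromosome among its 10 most like genes over the same arrays. The points share arrays and normalisation, and no cause was tested.

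**Figure D5:**
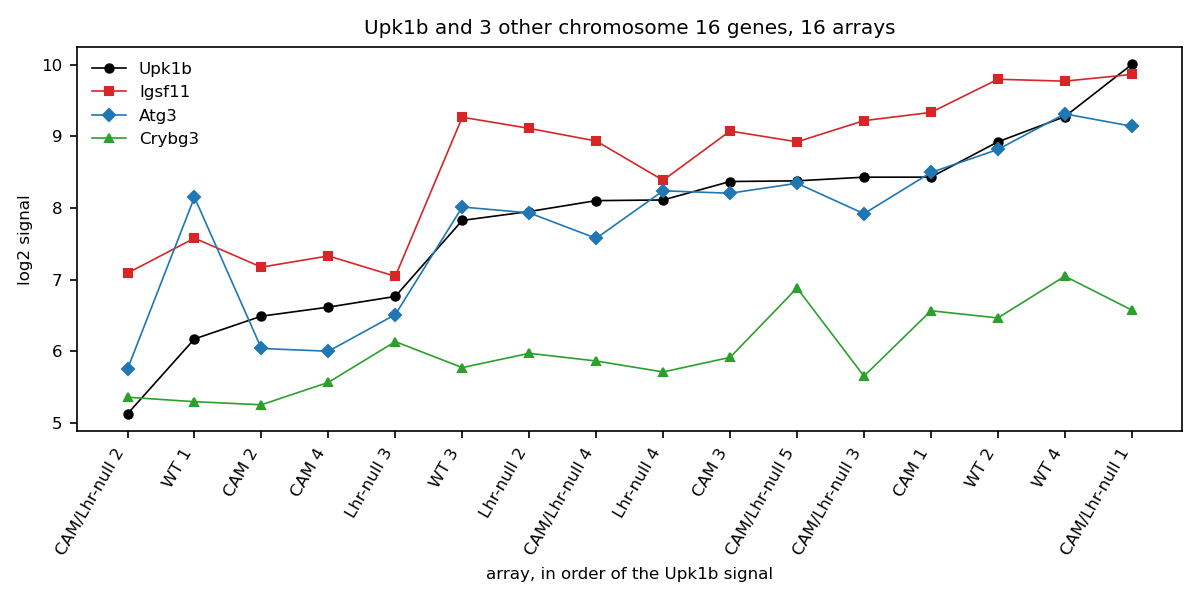
Log2 signal of Upk1b, Igsf11, Atg3 and Crybg3, all on chromosome 16, on 16 arrays placed in order of the Upk1b signal (lines only join the points of a gene; CAM, Fshr-CAM; WT, wild type). Igsf11 steps from at most 7.58 to at least 8.39 where Upk1b steps from 6.76 to 7.83.

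Among the members themselves, likeness over the 16 arrays (Pearson r of the brightest probes, a description) was closest for Krt8 with Cdh1 (0.91, and 0.71 without the 3 arrays of high Ovgp1), for Krt19 with Upk3b (0.84 and 0.82) and for Krt8 with its partner Krt18 (0.81 and 0.18). Krt7 with Krt18 had 0.78 and 0.82. Upk1b was like none, its closest member being Krt19 (0.32). The genes most like the mean of the 9 members were the mitochondrial creatine kinase gene Ckmt1 (0.86), Ky (0.84), the epithelial chloride channel gene Cftr (0.81), Ankrd37 (0.80), Grb7 (0.80) and Pgm2l1 (0.80).

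Of 12 other mesothelial and surface epithelium genes, 11 were kept. In Lhr-null against wild type, Lgr5, a receptor of R-spondins and stem cell marker of the ovarian surface, fell by 1.89 on the log2 scale (8.26 ± 1.23 in wild type, 6.37 ± 0.13 in Lhr-null, adjusted p = 0.0488). Muc1, a transmembrane mucin of epithelial surfaces, went from a level not above background on any of the 4 wild type arrays to 5.53 ± 0.39 in Lhr-null. This is at least 1.49-fold higher when wild type is set at the lowest signal detected on its arrays, a bound that was not tested. The limma test used the measured difference of 0.83, with the undetected wild type values (adjusted p = 0.00747). In Fshr-CAM/Lhr-null against wild type, Lgr5 fell by 1.92 (adjusted p = 0.0297) and was the only 1 of the 11 past the threshold, beside 7.9% of all probes. Against Fshr-CAM, where it was likewise not above background, Muc1 in Lhr-null was also at least 1.49-fold higher by the same bound. The measured difference of Fshr-CAM from Lhr-null was -0.86 (adjusted p = 0.0105 in limma). In that comparison Muc1 was the only 1 of the 11 past the threshold, beside 6.42% of all probes. The other 3 pairs and the interaction had 0 of 11, beside 0.13% to 1.62% of all probes. Muc1 was detected on 0 of 4 wild type, 0 of 4 Fshr-CAM, 1 of 5 Fshr-CAM/Lhr-null and 3 of 3 Lhr-null arrays, so 3 of the 4 arrays that carried it through the filter were Lhr-null arrays. With no detection filter its adjusted p in Lhr-null against wild type was 0.0110, and with all 17 arrays the call was lost (difference 0.65, adjusted p = 0.0545). In Fshr-CAM against Lhr-null it was lost with all 17 arrays (adjusted p = 0.0598) and with only the arrays compared (adjusted p = 0.0579). In Lhr-null against wild type 1 of the 11 passed higher and 1 lower, where 9.57% of all probes passed. The list's median difference in that comparison was 0.39, beside -0.03 for all probes. Over 16 fits that each left out 1 array, the call of Lgr5 held in 6 in Lhr-null and in 11 in Fshr-CAM/Lhr-null. Over the 11 alternatives of other kinds it held in 5 and in 7, and in Lhr-null it was lost with the authors' normalisation. In Lhr-null the Lgr5 call was also lost without the 3 arrays of high Ovgp1, which leaves a single Lhr-null array. Of the 16 fits, 12 kept the Muc1 probe, and its call in Lhr-null against wild type held in all 12. Those 12 also kept every array on which Muc1 was detected, so they cannot show whether its call rests on 1 Lhr-null array.

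Of 12 other keratin genes, only 3 were kept. Krt79, a type II keratin, rose in Lhr-null against wild type by 0.89 (6.18 ± 0.29 to 7.07 ± 0.05, adjusted p = 0.0477), and was lower in Fshr-CAM than in Lhr-null (log2 difference -1.14, adjusted p = 0.0214). It was the only 1 of the 3 to pass in either comparison, beside 9.57% and 6.42% of all probes. Of 25 epithelial junction and polarity genes 17 were kept, and 0 passed in Lhr-null against wild type, where 9.57% of all probes did. Cdh3, the P-cadherin gene, was higher in Fshr-CAM/Lhr-null than in wild type by 0.75 (adjusted p = 0.0220), and Cldn4, a claudin of tight junctions, was lower in Fshr-CAM than in Lhr-null (log2 difference -0.98, adjusted p = 0.0293). Each was the only 1 of the 17 to pass in its comparison, beside 7.9% and 6.42% of all probes. Both Cdh3 and Cldn4 were picked out with their values known. Of 3 other uroplakin genes 1 was kept, and it passed in 0 of the 7 comparisons. The median difference in Lhr-null against wild type was 0.83 for the 3 keratins and 0.25 for the 17 junction genes. With 1 array left out in turn, the call of Krt79 in Lhr-null against wild type held in 4 of 16 fits, that of Cdh3 in 13 and that of Cldn4 in 12. Over the 11 alternatives of other kinds they held in 7, 9 and 6, and each was lost with all 17 arrays. Those of Krt79 and Cldn4 were also lost with no detection filter and with the replicate block. They were lost as well without the 3 arrays of high Ovgp1, which leaves a single Lhr-null array. That of Cldn4 was further lost with only the arrays of the groups compared. The Krt79 difference ran from 0.23 to 0.94, and that of Cldn4 from -1.71 to -0.42. Cldn4 was detected on 1 of 4 Fshr-CAM arrays.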

How the data were processed

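Ovary RNA of 17 samples was measured on Illumina MouseWG-6 v2 bead arrays. The deposited table of non-normalised intensity values, with a detection p-value, bead count and bead standard error per probe, was exported from GenomeStudio 1.7.0 by the authors, per the submitters' processing notes and the file headers. A detection p-value compares a probe with the negative controls of its array, as deposited. The authors also deposited quantile-normalised intensities, whose log2 was used as an alternative; the value table of the series was identical to them (largest difference 0).

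From the non-normalised intensities, limma 3.58.1 in R 4.3.3 gave log2 values (neqc: normexp background correction from the detection p-values, offset 16, quantile normalisation). Probes with detection p under 0.05 on at least 4 arrays were kept (23098 of 45281), and a model with 1 mean per genotype was fitted over all of them (moderated tests with an intensity trend, Benjamini-Hochberg adjustment over all probes, threshold 0.05). Every adjusted p is limma's. The fit held 16 arrays (wild type 4, Fshr-CAM 4, Lhr-null 3, Fshr-CAM/Lhr-null 5), without Lhr-null replicate 1. The same code was first tested on simulated arrays with known changes. Of all probes 34885 had 1 gene symbol, 18 several and 10378 none; a gene in a list was read by its brightest kept probe. Promoter sequences came from RefSeq (GRCm38.p6) for 6 members, of which 4 are printed.

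The members and lists were chosen with earlier results of these data known. Named were the members with every probe, Ovgp1, up to 3 genes of each list with the largest change past the threshold in Lhr-null against wild type and in Fshr-CAM/Lhr-null against Fshr-CAM, the 6 genes most like the members' mean, and the member most like each member. Replicate numbers did not pair the arrays: over 21 pairs of the same number and different genotype, deviations from the group means had a mean correlation of 0.01. Slide and scan batches are not given in the sources used here. Alternatives were other sets of arrays, the authors' normalisation, no background correction, other filters, 1 probe per gene, array weights, a replicate block and leaving out each array.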

Additional observations from a re-analysis of the deposited data

Results flagged for a closer look

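In 56 groups of 4 or 5 arrays, 1 per probe and genotype, 5 had a highest or lowest array whose gap to its nearest neighbour, as a share of the group's range, was above Dixon's 95% critical value for that group size; chance alone flags about 1 in 20 such groups. Krt7 on wild type replicate 4 read 5.97, against 6.39 to 6.44 on the others. Krt7 on Fshr-CAM replicate 4 read 5.41, against 6.60 to 6.77. Krt8 on Fshr-CAM replicate 1 read 8.40, against 8.49 to 8.51, a gap small in size. The Upk3b probe of the middle brightness read 4.94 on Lhr-null replicate 1, with the remaining 3 of that genotype at 8.82 to 9.45 (17 arrays normalised together). Ovgp1 on Fshr-CAM/Lhr-null replicate 3 read 10.48, against 6.31 to 6.83 on the others.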

How the results depend on the processing

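Of 13 member probes, 0 passed in Lhr-null against wild type in the fit of 16 arrays, and 1 passed with all 17 arrays (Krt8; 5.81% of all probes), 1 with a stricter detection filter (Krt8; 13.5%), 1 with 1 probe per gene (Krt8; 12.4%), 2 with array weights (Krt8 and Cdh1; 12.1%) and 1 when the fit held just the 2 groups (an Upk3b probe; 5.68%). With wild type or Fshr-CAM as the reference for Fshr-CAM/Lhr-null, Krt8 made the count 1 with 13 arrays (5.55% and 1.07% of all probes) and 1 when the fit held just the 2 groups (7.78% and 1.33%), against 0. In Fshr-CAM against Lhr-null the count was 1 (Krt8), and it was 0 with 13 arrays (3.25% of all), 0 without background correction (6.73%), 0 without a detection filter (2.34%), 0 with only the arrays compared (2.05%) and 2 (Krt8 and Cdh1) with array weights (8.01%). The other 3 comparisons kept 0 throughout. The cause was not tested.

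Leaving out 1 array in turn gave counts of 0 to 3 in Lhr-null against wild type (5.42% to 11.4% of all probes), 0 to 1 in Fshr-CAM/Lhr-null against Fshr-CAM (0.827% to 2.74%), 0 to 1 in Fshr-CAM/Lhr-null against wild type (4.45% to 9.69%) and 0 to 3 in Fshr-CAM against Lhr-null (2.51% to 9.46%). The 3 came without Lhr-null replicate 2 (Krt8, Krt18 and Cdh1), and the single calls of the double mutant without Lhr-null replicate 4. With the replicate block the count in Fshr-CAM against Lhr-null was 0 of 13 (3.99% of all; Krt8 adjusted p = 0.0572); the block changed no other member count, and 3 of 16 arrays correlated best with an array of their own number. Of 2409 single-probe values under an alternative, 62 that passed in neither fit moved by over 1 SD, and 122 changed sign without ever passing. Another 18 gained the threshold and 16 lost it, and these are not in the 62 whatever their shift. With 13 arrays, Lhr-null is a single array, whose spread is assumed to be that of the other groups. The number of arrays and, for dim probes, the closeness to background limit the precision.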

Other observations

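The chromosome 16 genes that went with Upk1b were not read alike by all of their probes. Igsf11 had 3 kept probes, whose correlation with Upk1b over 16 arrays was 0.92, 0.86 and -0.29. Cd200 had 3 kept probes with 0.63, 0.42 and 0.78, while Atg3 had 1 kept of 3. Within genotypes, after removing each genotype's mean, Igsf11 (0.94) and Atg3 (0.90) were again the genes most like Upk1b, and 5 of the 10 most like genes again lay on chromosome 16, while the other members then had 0 to 2 genes of their own chromosome. Places were counted in RefSeq order over the chromosome 16 genes with a kept probe, leaving out all other genes. Igsf11 is 1, Atg3 14, Cd200 16 and Crybg3 55 places from Upk1b, and Tnk2 is at -50, on the other side. None of these 5 genes passed the threshold in any of the 7 comparisons, with adjusted p of 0.0682 or more. The labels give the same FVB/N x C57/BL6 cross for every array, and the strain of origin of chromosome 16 in each sample was not analysed here.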
